A study of Homo sapiens with 12 samples.

Results

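The E2F and retinoblastoma family transcripts were examined in FDX2-iKO ES2 cells, a clonal derivative of the human ovarian cancer line ES2. The set was chosen by name and holds 10 of the 58735 genes counted: the transcription factor genes E2F1, E2F2, E2F3, E2F7 and E2F8, the pocket protein genes RB1, RBL1 and RBL2, the dimerization partner gene TFDP1 and the DREAM subunit gene LIN54. In all cells studied the endogenous FDX2 gene was knocked out, and an editing-resistant FDX2-HA transgene was driven by doxycycline (Doxy) through a TetON promoter, so that cells with Doxy (+ Doxy) kept FDX2 and cells without it (wo Doxy in the labels) lost it. Culture lasted 6 days at 20% O2, or 4 days at 20% O2 and a further 3 days at 3% O2, each time in the presence or the absence of Doxy, which gave 4 conditions with 3 libraries each. The 3% and 20% O2 cells thus also differed in total culture time, and the part of oxygen and that of time cannot be told apart. FDX2 supplies the pathway that assembles iron-sulfur clusters, cofactors of many DNA replication and repair enzymes.

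E2F proteins bind DNA as dimers with a DP protein such as that encoded by TFDP1. E2F1, E2F2 and E2F3 are known as activators of the genes for DNA replication, while E2F7 and E2F8 are atypical E2Fs that bind without a DP partner and repress many of the same genes. The pocket proteins RB1, RBL1 (p107) and RBL2 (p130) hold E2Fs inactive until cyclin-dependent kinases phosphorylate them, and RBL1 or RBL2 joins E2F, DP and the MuvB core, which includes LIN54, in the DREAM complex that silences cell cycle genes in resting cells. LIN54 is the MuvB subunit that contacts the cell cycle genes homology region (CHR) of G2/M gene promoters. E2F1, E2F2, E2F7 and E2F8 are themselves known E2F target genes. Only RNA was measured here, so that the phosphorylation and activity of these proteins are not covered, and in bulk RNA a smaller fraction of cycling cells and less RNA per cell cannot be told apart.

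Promoters of the family were inspected for 2 motifs, since E2F proteins are known to act on genes of their own family. Promoters of 9 of the 10 members, 12 in all, were listed in RefSeq on GRCh38.p14 from 250 bases before to 50 bases after the start, and that of E2F8 was not analysed here. E2F letters (TTTCCCGC, TTTCGCGC, TTTGCCGC or TTTGGCGC, on either strand) were present in 5 of these 12 promoters, belonging to E2F1, E2F2, E2F3, RBL1 and TFDP1, against 3.31% of the 35116 promoters of that length in the table. CHR letters (TTTGAA or TTCGAA, on either strand) were present in 4 of the 12, belonging to E2F3, RBL2 and LIN54, against 16.4% of all promoters. The windows of the 2 LIN54 promoters overlap and hold the same match. The 2 motifs share no match that overlaps in these promoters. The start listed for RB1 lay inside the gene as annotated by GENCODE, so that its promoter is not shown. The 150 bases before the start are printed for the 5 members with E2F letters and for E2F7, the one member called higher after FDX2 loss at 20% O2, each 5′ to 3′ in the direction of transcription, with matches in capitals.
E2F1 (chr20:33686386-33686535, minus strand): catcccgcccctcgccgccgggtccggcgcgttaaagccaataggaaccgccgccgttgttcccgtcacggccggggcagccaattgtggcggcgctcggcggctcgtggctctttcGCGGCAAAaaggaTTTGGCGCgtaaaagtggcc
E2F2 (chr1:23531234-23531383, minus strand): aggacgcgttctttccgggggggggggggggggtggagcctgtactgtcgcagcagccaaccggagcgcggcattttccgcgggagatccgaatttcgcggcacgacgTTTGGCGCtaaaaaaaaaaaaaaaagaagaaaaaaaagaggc
E2F3 (chr6:20401729-20401878, plus strand): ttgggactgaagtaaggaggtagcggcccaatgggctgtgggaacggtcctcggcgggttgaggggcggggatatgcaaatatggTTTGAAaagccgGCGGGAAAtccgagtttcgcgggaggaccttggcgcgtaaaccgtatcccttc
RBL1 (chr20:37095998-37096147, minus strand): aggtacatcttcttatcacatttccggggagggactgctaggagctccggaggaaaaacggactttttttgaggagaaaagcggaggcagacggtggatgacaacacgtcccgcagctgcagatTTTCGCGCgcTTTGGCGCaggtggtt
TFDP1 (chr13:113584603-113584752, plus strand): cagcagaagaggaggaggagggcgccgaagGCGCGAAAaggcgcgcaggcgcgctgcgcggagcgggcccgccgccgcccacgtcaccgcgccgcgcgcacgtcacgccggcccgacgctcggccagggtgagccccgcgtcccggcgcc
E2F7 (chr12:77065570-77065719, minus strand): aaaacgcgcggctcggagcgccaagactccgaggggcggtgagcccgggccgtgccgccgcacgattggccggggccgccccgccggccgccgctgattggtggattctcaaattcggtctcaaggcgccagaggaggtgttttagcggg
In E2F1 the matches began 33 and 20 bases before the start, and in RBL1 26 and 16 bases before it. E2F2 and E2F3 each carried a single E2F match, starting 42 and 53 bases upstream, and that of TFDP1 lay farther out, 120 bases before the start. The E2F7 window held none of these letters. Such matches are a description of the letters and not evidence of binding.

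Depth was similar in all libraries, with 24958386 to 34313637 reads counted on genes (median 29621780). Levels are given as CPM, the reads of a gene relative to its library's total after TMM scaling. TMM applies a factor to each library to reduce differences of composition between libraries. A call means an adjusted p under 0.05 (Benjamini-Hochberg) in edgeR's quasi-likelihood test over 16891 genes. FDX2 itself had 2 to 13 counts in every library, too few for the test, and 70.9% of its exonic bases overlap other genes on the same strand, whose reads may not be assigned to either. It had 5, 2 and 6 counts with Doxy and 9, 13 and 4 without Doxy at 20% O2. These counts neither give the level of FDX2 nor check the labels of Doxy treatment. Ovarian and epithelial markers were partly absent, as 4 of 12 exceeded 1 CPM, led by KRT7, while EPCAM, CDH1, KRT19, MUC16 and MSLN had at most 3 counts in any library. All 6 mesenchymal markers exceeded 1 CPM, led by VIM, and none of 7 blood and endothelial markers did. Libraries also differed in the balance of GC-rich and GC-poor transcripts. In each library, genes with at least 60% GC were compared with genes of at most 40% GC, as a log2 difference. This difference was highest in replicate 3 of 3% O2 with Doxy (0.49) and replicate 2 of 3% O2 without Doxy (0.47). Next came replicate 1 of 20% O2 with Doxy (0.46), and lowest was replicate 3 of 20% O2 without Doxy (-0.38). Without Doxy it was -0.24, -0.21 and -0.38 at 20% O2 and 0.02, 0.47 and 0.15 at 3% O2, without overlap.

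All 10 family transcripts were detected and tested, with 16 to 11363 counts per library. Per kilobase of exon, TFDP1 was the most abundant member in each condition, at 90.8 CPM per kb at 20% O2 with Doxy. E2F1 (28.6 CPM per kb) and E2F7 (27.0 CPM per kb) followed in that condition, then E2F3 (14.5), RBL2 (14.3), RB1 (13.4) and RBL1 (10.1). E2F8 (4.80 CPM per kb) and LIN54 (3.17 CPM per kb) were lower, and E2F2 was the lowest at 0.258 CPM per kb. The libraries of E2F1 and E2F7 overlapped in that order, as did those of E2F3, RBL2 and RB1. In the other 3 conditions E2F7 stood above E2F1. At 20% O2 without Doxy the E2F7 level was 36.1 CPM per kb and that of E2F1 was 16.1 CPM per kb. The plot of CPM by library shows each member.

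**Figure D1:**
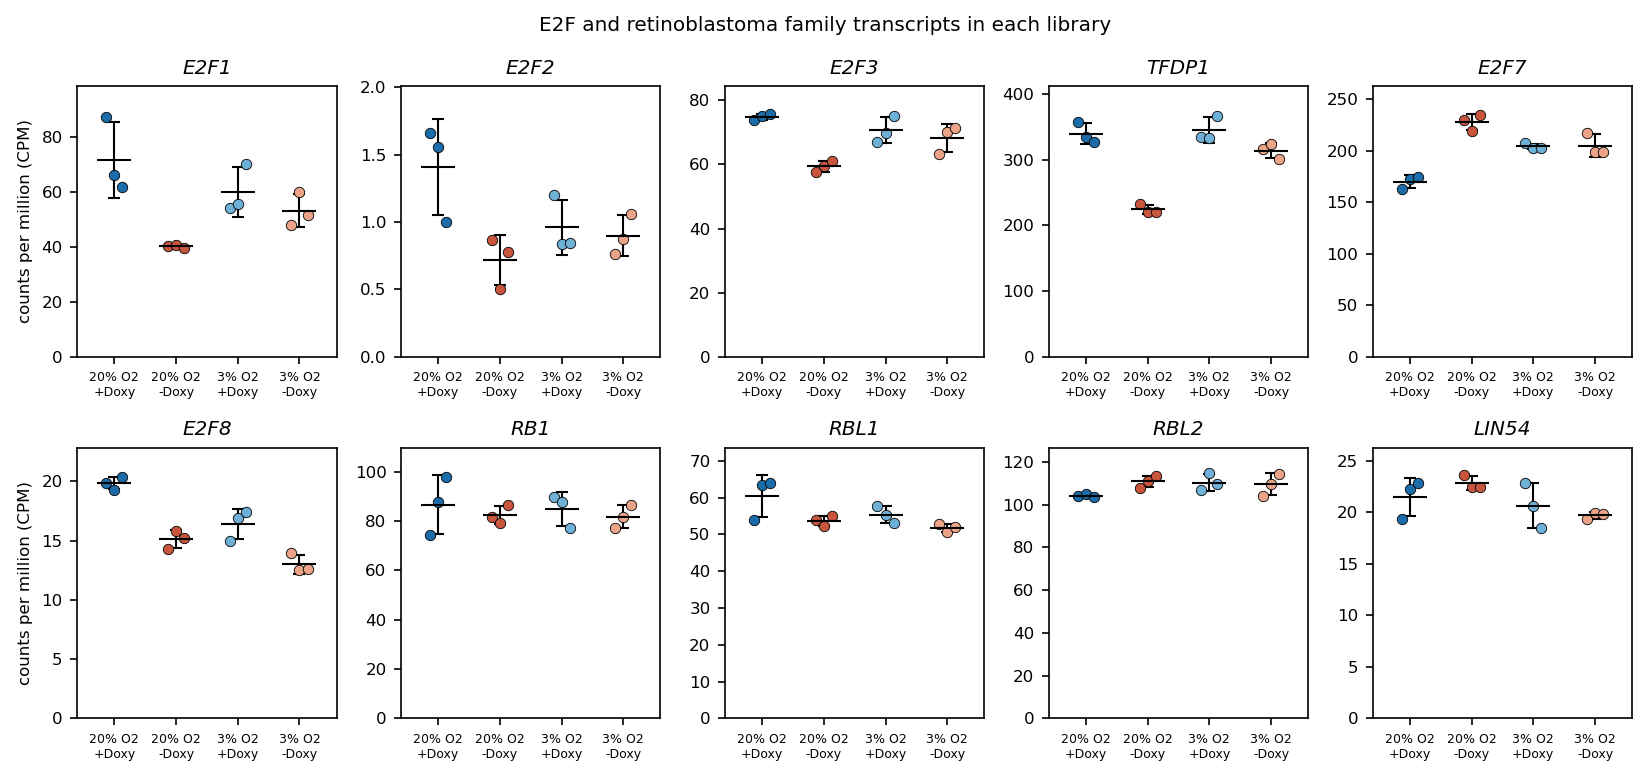
CPM of each family member (vertical axes, from 0) in the 3 libraries of each of the 4 conditions (horizontal axes), with points for libraries, bars for means and whiskers for SD. E2F1, E2F3 and TFDP1 were lowest in cells without Doxy at 20% O2, and E2F7 was highest there.

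FDX2 loss at 20% O2 lowered transcripts of the activators and their DP partner, raised E2F7 and left the pocket proteins without a call. Of 10 members 5 were lower (E2F1, E2F2, E2F3, E2F8 and TFDP1) and 1 was higher (E2F7), so that 6 were called. Of all genes tested, 35.3% were called, 17.7% lower and 17.6% higher. The median log2 fold change was -0.25 over the members and 0.01 over all genes.

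TFDP1, which encodes the DP1 partner of the E2F proteins (chr13:113584721-113641470), measured 358, 335 and 326 CPM with Doxy at 20% O2 and 233, 221 and 220.0 CPM without Doxy. The groups were well separated, with 339.8 ± 16.3 CPM against 225 ± 7.07 CPM (SD, n = 3). TFDP1 fell by 0.60 on the log2 scale (SE 0.0560, adjusted p = 1.6e-05). At 3% O2 its levels were 335, 334 and 367 CPM with Doxy and 316, 323 and 301 CPM without Doxy. These groups did not overlap either, but the log2 difference of -0.14 (95% interval -0.26 to -0.02) gave an adjusted p of 0.162.

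E2F1, an activator of replication genes (chr20:33675683-33686404), measured 87.2, 66.0 and 61.6 CPM with Doxy at 20% O2. Without Doxy it measured 40.3, 40.6 and 39.6 CPM, so that all libraries lay below those with Doxy. E2F1 fell by 0.83 on the log2 scale (SE 0.139, adjusted p = 0.000869). Its spread with Doxy (SD 13.7 CPM) was set by replicate 1, which is also the most GC-rich library of that condition, and 62.5% of the bases of E2F1 exons are G or C. With each library's GC trend taken out, the decrease was -0.62 (adjusted p = 4.9e-08). The most GC-rich library of each 3% O2 condition likewise held the highest E2F1 level of that condition, 70.2 CPM with Doxy and 59.9 CPM without. The part of GC content in the spread of E2F1 was not tested beyond that correction.

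E2F2 was scarce, with 52, 43 and 34 counts with Doxy and 27, 16 and 24 counts without Doxy at 20% O2. It encodes an activator E2F (chr1:23506430-23531220). These counts did not overlap between the groups, and the log2 fold change was -0.97 (SE 0.280, adjusted p = 0.0205). The call rested on few reads, since it was lost without replicate 1 (adjusted p = 0.0668) or replicate 2 (0.0643) with Doxy and without replicate 2 without Doxy (0.0726). E2F3, the other activator (chr6:20401906-20493715), measured 73.9, 75.0 and 75.8 CPM with Doxy and 57.6, 59.7 and 61.1 CPM without Doxy. E2F3 varied little with Doxy (SD 0.968 CPM) and fell by 0.33 on the log2 scale (SE 0.0597, adjusted p = 0.00137).

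The atypical members moved in opposite directions. E2F7 (chr12:77021247-77065580) measured 163, 173 and 174 CPM with Doxy at 20% O2 and 229, 219 and 234 CPM without Doxy. Every library without Doxy exceeded every library with Doxy, and E2F7 rose by 0.42 on the log2 scale (SE 0.0521, adjusted p = 0.000117). E2F8 (chr11:19224063-19241620) measured 19.9, 19.3 and 20.4 CPM with Doxy and 14.3, 15.8 and 15.2 CPM without Doxy. It fell by 0.39 on the log2 scale (SE 0.0729, adjusted p = 0.00172). Summed per kilobase of exon, E2F1, E2F2 and E2F3 stood to E2F7 and E2F8 at ratios of 1.61, 1.28 and 1.21 in the libraries with Doxy at 20% O2 and of 0.688, 0.723 and 0.681 in those without Doxy. By this measure the activator transcripts were the more abundant in each 20% O2 library with Doxy and the atypical ones in each without it. The ratio depends on the exon lengths used. It was not corrected for GC content, which is 62.5% in E2F1 and 43.1% in E2F7. At 3% O2 the ratios lay closer to 1, at 0.953, 0.991 and 1.18 with Doxy and 0.834, 1.09 and 1.00 without Doxy, and these groups overlapped. In each condition the highest ratio was that of the most GC-rich library, and the part of GC content in it was not tested.

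**Figure D2:**
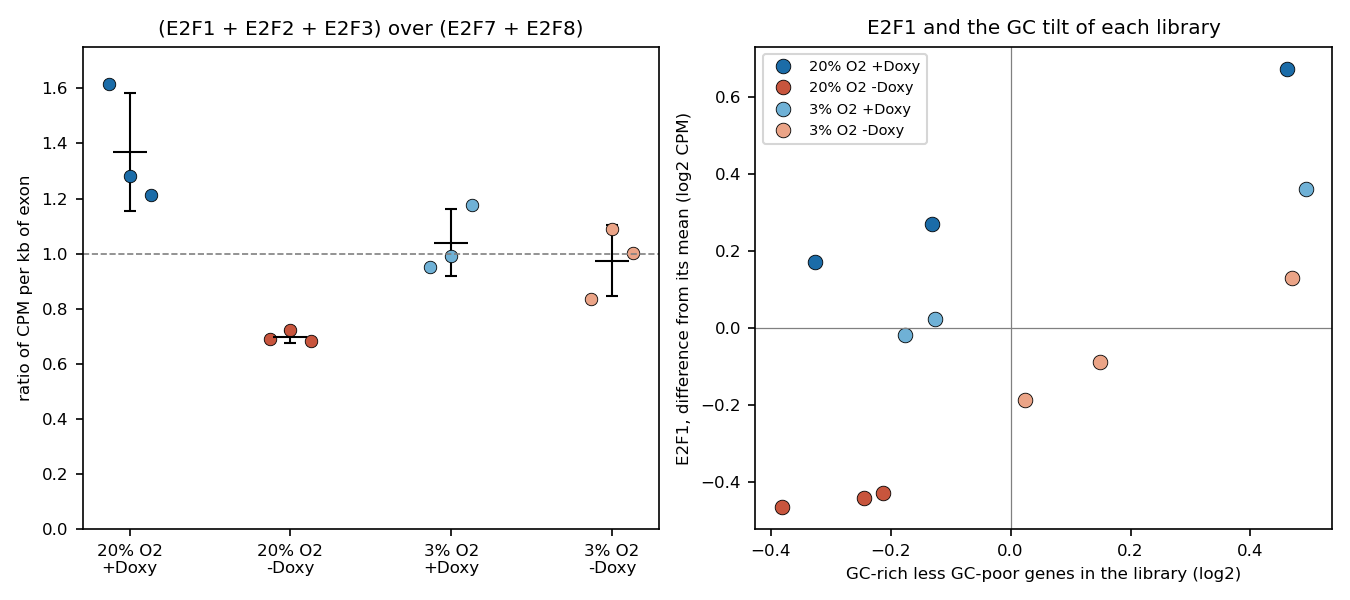
Left, ratio of the summed CPM per kb of E2F1, E2F2 and E2F3 to that of E2F7 and E2F8 in each library by condition (points, with means and SD; the dashed line marks equality). Right, log2 CPM of E2F1 relative to its mean over the 12 libraries against the log2 difference of GC-rich and GC-poor genes in the same library; the ratio exceeded 1 in the 3 libraries with Doxy at 20% O2, and within each 3% O2 condition E2F1 was highest in the most GC-rich library.

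The pocket protein genes showed no call. RB1 (chr13:48303726-48599436), the retinoblastoma gene, measured 74.2, 87.8 and 98.0 CPM with Doxy and 81.7, 79.2 and 86.4 CPM without Doxy at 20% O2. The groups overlapped, and the log2 difference was -0.07 with a 95% interval from -0.28 to 0.14 (adjusted p = 0.605). RBL1 (chr20:36996349-37095995), which encodes p107, measured 53.8, 63.5 and 63.9 CPM with Doxy and 54.0, 52.3 and 54.9 CPM without Doxy. The difference was -0.17 (95% interval -0.32 to -0.02, adjusted p = 0.0747), and without replicate 1 with Doxy, the low value, it was -0.26 (adjusted p = 0.00565). Taking out the GC trend of the libraries also brought RB1 (-0.16, adjusted p = 0.0196) and RBL1 (-0.24, adjusted p = 0.000544) past the threshold.

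RBL2 (chr16:53433977-53491649), which encodes the p130 subunit of DREAM, measured 104, 105 and 104 CPM with Doxy and 108, 111 and 113 CPM without Doxy. The groups did not overlap, but the log2 difference of 0.09 (95% interval -0.02 to 0.20) gave an adjusted p of 0.2. Of its exonic bases, 18.2% overlap genes on the opposite strand, among them AKTIP, and the strand setting of the counting is not given in the sources used here. LIN54 (chr4:82909973-83012926) measured 19.3, 22.3 and 22.8 CPM with Doxy and 23.6, 22.4 and 22.5 CPM without Doxy. Its difference of 0.09 (95% interval -0.09 to 0.27) was not called.

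**Figure D3:**
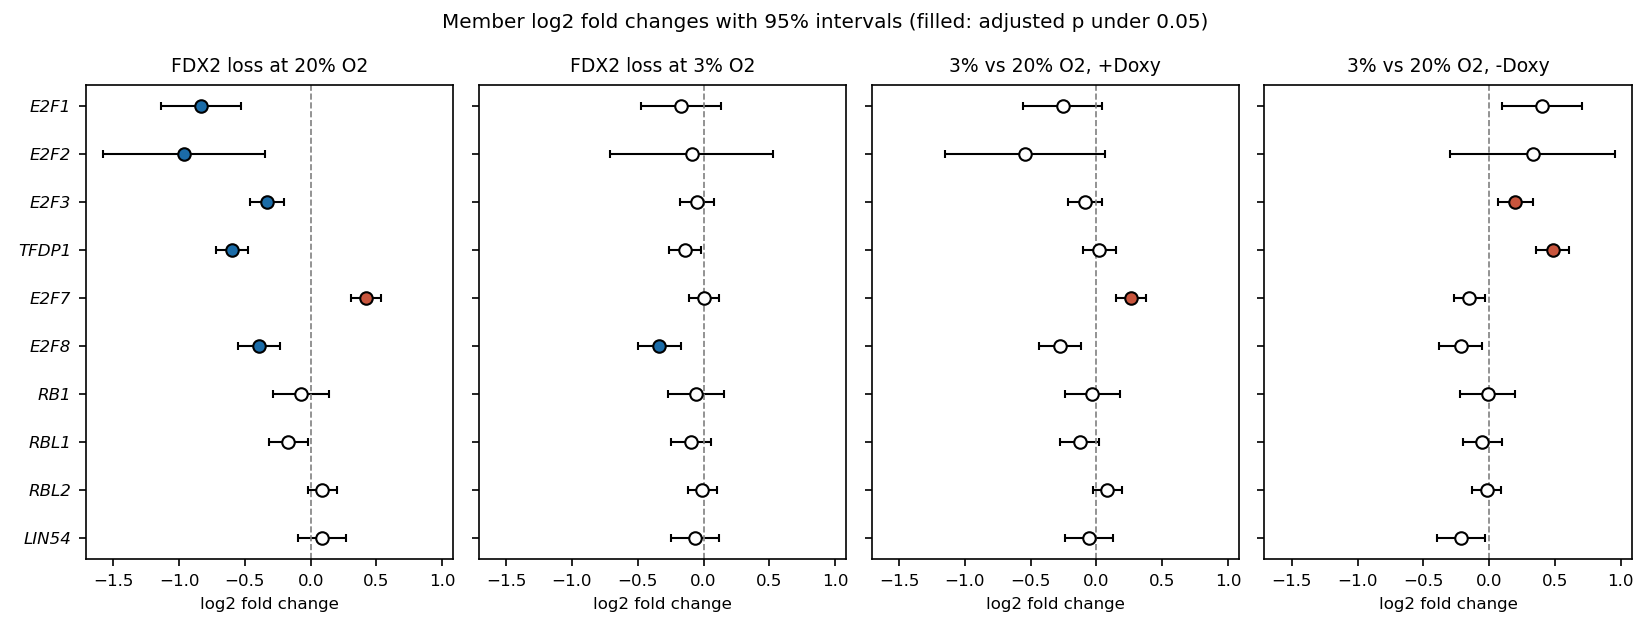
Log2 fold changes of the 10 members (horizontal axes) in 4 comparisons, with 95% intervals; filled points passed an adjusted p under 0.05, blue for lower and red for higher. Activators and TFDP1 lay below 0 and E2F7 above 0 after FDX2 loss at 20% O2, and E2F8 was the one member called after FDX2 loss at 3% O2.

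At 3% O2, FDX2 loss was followed by a call in E2F8 alone. Of 10 members 1 was lower and none was higher, while 7.31% of all genes were called, 4.2% higher and 3.11% lower. DESeq2's Wald test called 2 members in this comparison, E2F8 and TFDP1, both lower. E2F8 measured 14.99, 16.9 and 17.4 CPM with Doxy and 13.9, 12.5 and 12.6 CPM without Doxy, with no overlap. It fell by 0.34 on the log2 scale (SE 0.0741, adjusted p = 0.0206). That call was lost without replicate 2 with Doxy (adjusted p = 0.0745) and without replicate 2 (0.0821) or 3 (0.0696) without Doxy. It was also lost when the 6 libraries of this comparison were fitted alone (adjusted p = 0.1).

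The other members were not called after FDX2 loss at 3% O2. E2F1 measured 54.0, 55.6 and 70.2 CPM with Doxy and 48.1, 59.9 and 51.4 CPM without Doxy. These groups overlapped, and the log2 difference was -0.17 (95% interval -0.48 to 0.13, adjusted p = 0.485). With the GC trend taken out, it was -0.27 (adjusted p = 0.00031). E2F3 (67.1, 69.8 and 75.0 CPM with Doxy against 63.3, 70.2 and 71.2 CPM without Doxy) differed by -0.05 (95% interval -0.18 to 0.08). E2F7 measured 207, 203 and 202 CPM with Doxy and 218, 199 and 198 CPM without Doxy, a difference of 0.01 (95% interval -0.11 to 0.12). The pocket protein genes were not called, with differences of -0.05 for RB1, -0.09 for RBL1 and -0.01 for RBL2.

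The responses to FDX2 loss were then compared directly between 3% and 20% O2, as the difference of the log2 fold changes. E2F7 and TFDP1 differed between the oxygen levels, 1 in each direction, so that 2 of 10 members were called, against 7.29% of all genes, 3.21% higher and 4.08% lower. For TFDP1 the difference was 0.46 (SE 0.0790, adjusted p = 0.0067), from -0.60 at 20% O2 to -0.14 at 3% O2. For E2F7 it was -0.41 (SE 0.0737, adjusted p = 0.00787), from 0.42 to 0.01. The differences for E2F1 (0.66, 95% interval 0.23 to 1.09) and E2F3 (0.28, 95% interval 0.10 to 0.47) narrowly missed the threshold, with adjusted p of 0.0683 and 0.0685. E2F1 passed it without replicate 3 of 20% O2 with Doxy (adjusted p = 0.0456) or replicate 3 of 3% O2 with Doxy (0.0236), and with the GC trend taken out, when the difference was smaller (0.36, adjusted p = 0.000374). E2F3 passed it without replicate 3 of 3% O2 with Doxy (adjusted p = 0.0258) or replicate 1 of 3% O2 without Doxy (0.0376). DESeq2's Wald test called both (adjusted p = 0.0151 for E2F1 and 0.0163 for E2F3). For E2F8 the difference was 0.06 with an interval from -0.17 to 0.29, which leaves room for a change of either sign.

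While FDX2 was present, E2F7 was the one member that differed by the test between oxygen levels. It was higher at 3% O2 with Doxy, so that 1 of 10 members was called, against 2.02% of all genes, 1.63% higher and 0.385% lower. E2F7 measured 163, 173 and 174 CPM at 20% O2 and 207, 203 and 202 CPM at 3% O2, without overlap. The log2 difference was 0.26 (SE 0.0521, adjusted p = 0.024), and the call was lost on leaving out any library of the comparison other than replicate 3 of 3% O2 (adjusted p = 0.0579 to 0.135). E2F8 lay lower at 3% O2 in every library, by -0.27 on the log2 scale (adjusted p = 0.0921), and E2F1 differed by -0.26 (adjusted p = 0.492). With the GC trend taken out, both E2F1 (-0.26, adjusted p = 0.000545) and E2F8 (-0.28, adjusted p = 0.0458) were called lower.

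In cells without Doxy, TFDP1 and E2F3 were higher at 3% than at 20% O2. These 2 of 10 members were called, against 25.8% of all genes, 13.9% higher and 11.9% lower, so that the share of members was no larger than that of genes at large. TFDP1 rose from 233, 221 and 220.0 CPM to 316, 323 and 301 CPM, by 0.48 on the log2 scale (SE 0.0560, adjusted p = 0.000195). E2F3 rose from 57.6, 59.7 and 61.1 CPM to 63.3, 70.2 and 71.2 CPM, by 0.20 (SE 0.0598, adjusted p = 0.0316). The E2F3 call was lost on leaving out any of the 3 libraries at 20% O2 (adjusted p = 0.13, 0.0995 and 0.0764) and replicate 2 (0.106) or 3 (0.103) at 3% O2. The count of called members was then 1 in each case, and it was 5 without replicate 1 at 3% O2, when E2F1 (adjusted p = 0.0433), E2F7 (0.0253) and E2F8 (0.0384) joined.

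E2F1, E2F7 and E2F8 did not overlap between 3% and 20% O2 without Doxy and lay just outside the threshold. E2F1 measured 40.3, 40.6 and 39.6 CPM at 20% O2 and 48.1, 59.9 and 51.4 CPM at 3% O2, a difference of 0.40 (adjusted p = 0.0542), which became 0.10 (adjusted p = 0.0327) with the GC trend taken out. E2F7 differed by -0.15 (adjusted p = 0.0545), and by -0.04 with the GC trend taken out (adjusted p = 0.538). E2F8 differed by -0.22 (adjusted p = 0.0516), and by -0.15 with the GC trend taken out (adjusted p = 0.147). RB1 differed by -0.01, and by 0.20 with the GC trend taken out (adjusted p = 0.0106). Libraries with the same replicate number deviated together in these 2 conditions, and a fit to these 6 libraries with the replicate number as a block called 4 members, 3 higher and 1 lower. Beside TFDP1 and E2F3 these were E2F1 (0.38, adjusted p = 0.0155) and LIN54 (-0.23, adjusted p = 0.0313). The 6 libraries without the block also gave calls for E2F1 (adjusted p = 0.0112) and LIN54 (0.0114). The LIN54 difference was -0.03 with the GC trend taken out of the 12 libraries (adjusted p = 0.686).

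Relative to cells with Doxy at 20% O2, cells without Doxy at 3% O2 had a lower E2F8, while the call for E2F7 depended on the settings. In this comparison 3 of 10 members were called, 1 higher and 2 lower, against 18.3% of all genes, 10.3% higher and 8.05% lower. E2F8 fell by 0.61 on the log2 scale (SE 0.0737, adjusted p = 0.000338) and had its lowest levels of the study here, 13.9, 12.5 and 12.6 CPM. E2F7 rose by 0.27 (SE 0.0522, adjusted p = 0.00523), a call that was lost without a filter on low counts (adjusted p = 0.0584) and with the 6 compared libraries alone (0.0811). RBL1 fell by 0.22 (adjusted p = 0.0444), from 53.8, 63.5 and 63.9 CPM to 52.7, 50.6 and 52.1 CPM. The RBL1 call was lost without replicate 2 (adjusted p = 0.159) or 3 (0.146) of 20% O2 with Doxy and without replicate 1 (0.0775), 2 (0.115) or 3 (0.084) of 3% O2 without Doxy. E2F1 differed by -0.43 (adjusted p = 0.0519) and passed the threshold without replicate 3 of 20% O2 with Doxy (adjusted p = 0.0412) or replicate 2 of 3% O2 without Doxy (0.0497). It also passed with DESeq2 size factors (adjusted p = 0.034), without a filter (0.0165), with at least 10 counts in every library (0.0267), by DESeq2's Wald test (0.00951) and with the GC trend taken out (-0.52, adjusted p = 1.35e-06). The comparisons above share libraries and are not independent of each other.

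Genes upstream of the pocket proteins were read from lists. These and the lists of the next paragraphs were drawn from general knowledge, with earlier results of these data known. Cyclins and their kinases phosphorylate the pocket proteins, and 9 of 10 listed genes could be tested, CCND2 having too few counts. After FDX2 loss at 20% O2, 6 of the 9 were lower and none was higher, against 17.7% of all genes lower and 17.6% higher. CCNA2, the S and G2 phase cyclin, fell by 1.08 on the log2 scale, CCNE1 by 0.60, CCND3 by 0.55, the phosphatase gene CDC25A by 0.54, CCNE2 by 0.42 and CDK2 by 0.15. CCNA2 measured 102, 113 and 114 CPM with Doxy and 53.2, 49.0 and 52.7 CPM without Doxy, with no overlap. The G1 genes CCND1 (0.05), CDK4 (-0.11) and CDK6 (0.03) were not called. The list's median log2 fold change was -0.42. After FDX2 loss at 3% O2, CCNE1, CCNE2, CCNA2 and CDC25A were lower, against 3.11% of all genes. This count of 4 became 2 without replicate 1 with Doxy and 1 without replicate 2 with Doxy or without any of the 3 libraries without Doxy. It was 0 with the 6 compared libraries alone. With Doxy 2.02% of all genes were called between 3% and 20% O2 by the reported edgeR fit. None of the 9 was called by that fit, near that share, or by DESeq2's Wald test. Of these, 0 had an unadjusted p under 0.05, and 1 was called with the GC trend taken out. Without Doxy 4 were higher at 3% O2 (CCNA2 0.69, CCND3 0.50, CCNE1 0.32 and CDK4 0.20), against 13.9% of all genes. On leaving out any library at 20% O2 or replicate 1 at 3% O2, 2 of 9 were called.

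Inhibitors of these kinases did not move as a group. Of 7 listed genes 6 could be tested, CDKN1C having too few counts. Of these, 1 was higher and 2 were lower after FDX2 loss at 20% O2, against 35.3% of all genes called. After FDX2 loss at 20% O2 CDKN2B, which encodes the CDK4 and CDK6 inhibitor p15, rose from 7.51, 8.41 and 8.11 CPM to 13.1, 14.4 and 13.8 CPM, by 0.78 on the log2 scale (adjusted p = 3.18e-05). The related inhibitor genes CDKN2C (p18) and CDKN2D (p19) fell by 0.96 (adjusted p = 3.8e-05) and 0.58 (adjusted p = 0.00251). CDKN2C measured 44.4, 38.6 and 35.7 CPM with Doxy and 19.7, 20.1 and 21.0 CPM without Doxy. CDKN1A, which encodes p21, measured 3.61, 3.44 and 2.91 CPM with Doxy and 4.30, 4.43 and 4.32 CPM without Doxy, a difference of 0.39 (adjusted p = 0.166). CDKN1B (adjusted p = 0.967) and CDKN2A (adjusted p = 0.397) were not called. At 3% O2 the reported edgeR fit called 7.31% of all genes after FDX2 loss. None of the 6 was called by that fit, near that share, or by DESeq2's Wald test, with 0 at an unadjusted p under 0.05. With the GC trend taken out, 1 was called. The responses of CDKN2B (-0.61, adjusted p = 0.0104) and CDKN2C (0.81, adjusted p = 0.00741) differed between the oxygen levels.

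Other genes of the E2F family, of DREAM or associated with it changed in both directions after FDX2 loss at 20% O2. Of 11 tested, 2 were higher and 3 lower, where 17.6% of all genes were higher and 17.7% lower. The count of 5 became 9 with the GC trend taken out. E2F4, an E2F that works mainly with RBL1 and RBL2 in repression, fell by 0.47 (adjusted p = 0.0132), from 148, 123 and 115 CPM to 90.2, 97.6 and 91.0 CPM. MYBL2 (-0.67) and FOXM1 (-0.81), the factors that join MuvB to activate G2/M genes, were lower, while TFDP2 (0.37), the other DP gene, and the MuvB gene LIN52 (0.26) were higher. TFDP1 and TFDP2 thus moved in opposite directions. At 3% O2 none of the 11 was called by the reported edgeR fit after FDX2 loss, against 7.31% of all genes. Of the 11, 3 had an unadjusted p under 0.05. DESeq2's Wald test called 1, and 3 were called with the GC trend taken out. Of 8 corepressor genes that bind RB1, HDAC2 (-0.40), SUV39H1 (-0.51) and RBBP7 (-0.31) were lower at 20% O2, a share near the 35.3% of all genes called there. At 3% O2 the reported edgeR fit called none of them, against the same 7.31% of all genes. Of them, 3 had an unadjusted p under 0.05 and 2 were called by DESeq2's Wald test. Without replicate 3 of 3% O2 with Doxy, 1 of the 8 was called.

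Genes that E2F and DREAM complexes are known to control were lower after FDX2 loss. Of 26 G1/S genes with roles in DNA replication, 23 were lower and none was higher at 20% O2, against 17.7% of all genes lower, with a median log2 fold change of -0.66. The largest decreases were those of GINS2 (-0.97), MCM5 (-0.94) and MCM6 (-0.90), components of the replicative helicase. RPA2 (-0.02), RRM2 (-0.10) and RFC4 (-0.11) were closest to 0 and were not called. All 23 G2/M genes were lower, with a median of -0.73. KIF20A (-1.56), PLK1 (-1.48) and CCNB1 (-1.16), genes of mitosis, decreased most, and NUSAP1 (-0.28), CDK1 (-0.42) and BUB1B (-0.58) least.

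The decreases were smaller at 3% O2. There 12 of 26 G1/S genes were lower (median -0.22), among them MCM6 (-0.62) and PCNA (-0.50). Of the 23 G2/M genes 17 were lower (median -0.26), against 3.11% of all genes, led by KIF20A (-0.49), CENPE (-0.43) and BUB1 (-0.42). The count of 17 fell to 10 without replicate 1 and 5 without replicate 2 with Doxy, and to 10 without replicate 1 and 6 without replicate 2 without Doxy. With the 6 compared libraries alone, 4 G1/S genes and 2 G2/M genes were called. The difference of the responses was called for 20 of 23 G2/M genes, each less lowered at 3% O2, against 3.21% of all genes called in that direction, with the largest values for PLK1 (1.08), KIF20A (1.07) and BIRC5 (0.80). That count became 13 without replicate 1 or replicate 3 of 20% O2 without Doxy. For G1/S genes 11 of 26 were called, led by UHRF1 (0.76), TK1 (0.59) and GINS2 (0.55). This count was 5 without replicate 1 or replicate 3 of 20% O2 without Doxy, 6 without replicate 2 of 20% O2 with Doxy or without replicate 1 or 2 of 3% O2 with Doxy, and 7 without replicate 2 of 20% O2 without Doxy or of 3% O2 without Doxy.

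Between oxygen levels the reported edgeR fit called many of these genes in cells without Doxy. With Doxy, it called 2.02% of all genes between 3% and 20% O2. There it called none of the 26 G1/S genes and none of the 23 G2/M genes, which is near that share. Of these, 8 G1/S and 2 G2/M genes had an unadjusted p under 0.05. DESeq2's Wald test called 6 G1/S genes lower and 0 G2/M genes. With the GC trend taken out, 7 G1/S genes and 1 G2/M gene were called. The log2 difference was below 0 for 25 of the 26 G1/S genes (median -0.10). Without Doxy, 14 G1/S genes were higher and 1 was lower (RPA2, -0.19) at 3% O2, with UHRF1 (0.65), TK1 (0.56) and CHAF1A (0.50) the highest. These values were not corrected for GC content, which is 54.6% in UHRF1, 62.8% in TK1 and 57.6% in CHAF1A. The libraries of these 2 conditions differed in GC balance without overlap. With the GC trend taken out, 17 G1/S and 23 G2/M genes were called. The part of GC content was not tested beyond that. Of the G2/M genes 21 of 23 were higher at 3% O2, against 13.9% of all genes, among them PLK1 (1.17), KIF20A (1.16) and CCNB1 (0.74). The medians were 0.21 for the G1/S and 0.55 for the G2/M genes, against 0.07 for all genes tested.

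**Figure D4:**
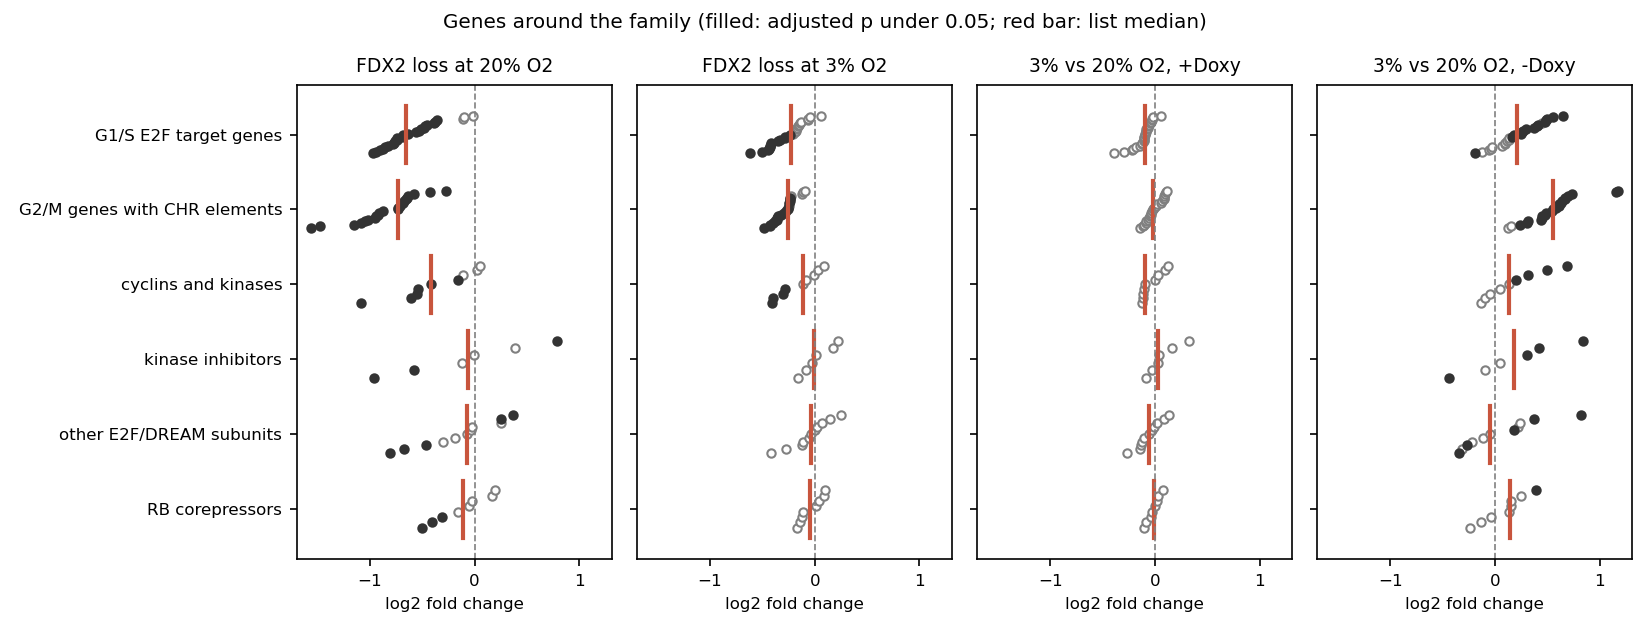
Log2 fold changes (horizontal axes) of the tested genes of 6 lists in 4 comparisons, 1 point per gene (filled at an adjusted p under 0.05), with red bars for list medians. The medians of the G1/S and G2/M lists lay below 0 after FDX2 loss at 20% O2 and nearer to 0 after FDX2 loss at 3% O2. At 3% relative to 20% O2 in cells without Doxy these medians lay above 0, with 5 of 26 G1/S genes below 0.

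For each member called after FDX2 loss at 20% O2, the 2 genes with the most similar profile were found among 10764 genes whose mean level was 5 CPM or more, by the root mean square difference of centred log2 CPM over the 12 libraries. The profile of TFDP1 was closest to MYH10, a non-muscle myosin gene, and NSD2, a histone methyltransferase gene, with a difference of 0.0478 and 0.0480. E2F1 was closest to POLE (0.0672), which encodes the catalytic subunit of DNA polymerase epsilon, and PLEKHG3 (0.0691). E2F3 was closest to TBC1D4 (0.0390) and STARD7 (0.0446), and E2F7 to MOAP1 (0.0573) and the circadian clock gene BMAL1 (0.0633). E2F8 was closest to AADAT (0.104) and NAF1 (0.105). E2F2 had no gene as close, the nearest being ACVR2B (0.252) and SLC25A10 (0.267), with few counts behind its own profile.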

How the data were processed

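The authors prepared poly(A) RNA of FDX2-iKO ES2 cells, sequenced it as paired-end reads and, per the labels, aligned it with STAR to GRCh38 and assigned it to genes with featureCounts. They deposited raw counts, 1 value for each gene and library, without normalization. Versions, the annotation and the strand setting of the counting are not given in the sources used here. All 58735 gene identifiers match GENCODE release 29. Depth was 24958386 to 34313637 counts per library, and counts of 16 and more per member and library set the precision of E2F2. Replicates are the 3 libraries of a condition. The study calls them biological replicates. Nothing further tells how separate their cultures were, so that p-values measure the spread between these libraries. Any pair of replicates differed by more than sampling noise, with a median chi-square per gene of at least 0.735 where sampling alone gives 0.455.

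The test used edgeR 4.0.16 under R 4.3.3: genes kept by filterByExpr (minimum count 10, minimum total 15), TMM scaling, 1 quasi-likelihood fit of 4 condition means to 12 libraries (8 residual degrees of freedom), contrasts for the comparisons reported, and Benjamini-Hochberg adjustment over 16891 genes. The steps were tested on simulated data. Alternatives were DESeq2 1.42.0 (size factors, Wald test), other filters, a replicate block, fits to the compared conditions, leaving out each library, an adjusted p under 0.01, and each library's GC trend (lowess with span 0.3 over genes whose log2 CPM exceeded 2) as an offset.

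Across genes, deviations from the condition means correlated at 0.190 to 0.497 between same-numbered libraries of 20% and 3% O2 without Doxy. Elsewhere at least 1 of the 3 same-numbered pairs stayed at or below 0.1. For that comparison alone, a blocked fit to 6 libraries was therefore added after seeing the data.

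All 10 members were tested and eligible to be named in each comparison, and not all were named in each. Genes of the small lists were named freely, and of the G1/S and G2/M lists the 3 largest and 3 smallest log2 fold changes were eligible. The members and lists, drawn from general knowledge, were chosen with earlier results of these data known. Promoter sequences are those of RefSeq on GRCh38.p14.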

Additional observations from a re-analysis of the deposited data

Results flagged for a closer look

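The response to FDX2 loss differed between oxygen levels by the test of the difference itself for E2F7 and TFDP1, of the 10 members. For E2F7 the difference of the log2 fold changes, 3% less 20% O2, was -0.41 (adjusted p = 0.00787). E2F7 was higher without Doxy than with Doxy in 3 of 3 libraries at 20% O2, while the groups overlapped at 3% O2. Between 3% and 20% O2, E2F7 differed by 0.26 with Doxy (adjusted p = 0.024) and by -0.15 without Doxy (adjusted p = 0.0545). For TFDP1 the difference was 0.46 (adjusted p = 0.0067). TFDP1 was lower without Doxy in 3 of 3 libraries at both oxygen levels, by -0.60 and -0.14 on the log2 scale. Both differences kept their call in each of the 20 alternative settings run for them.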

How the results depend on the processing

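The 6 members called after FDX2 loss at 20% O2 became 5 to 8 under the alternatives (5 to 6 on leaving out 1 library). After FDX2 loss at 3% O2 (1 member called) the count was 0 with a replicate block, with the compared conditions alone and at an adjusted p under 0.01, 2 with DESeq2's Wald test and with the GC offset, with or without the block, and 0 to 1 on leaving out 1 library. For 3% against 20% O2 with Doxy (1 called) it was 0 without a filter, with at least 10 counts in every library, with the block, with the compared conditions alone and at an adjusted p under 0.01, 2 with the Wald test and with GC offset and block, 3 with the GC offset, and 0 to 1 on leaving out 1 library. Without Doxy (2 called) it was 4 with DESeq2 size factors, with at least 10 counts in every library, with the compared conditions alone, with the GC offset and with the block in those 6 libraries, 5 with the Wald test, 1 at an adjusted p under 0.01, and 1 to 5 on leaving out 1 library. For both changes together (3 called) it was 1 with the compared conditions alone, 6 with the Wald test and 2 to 3 on leaving out 1 library. For the difference of the responses (2 called) it was 4 with the Wald test and with GC offset and block, 5 with the GC offset, and 2 to 4 on leaving out 1 library. The cause of these moves was not tested. Of 960 recomputed member values, 868 stayed on their side of the threshold, 39 lost and 51 gained a call, and 2 passed it with the other sign. These were of RB1, which between 3% and 20% O2 without Doxy was 0.20 with the GC offset (0.20 with the block as well) against -0.01. In all, 46 values took the other sign, each of a member without a call in the comparison concerned. A block on the replicate number in the fit to 12 libraries ended the calls of E2F8 after FDX2 loss at 3% O2 (adjusted p = 0.0567), of E2F7 between oxygen levels with Doxy (0.0821) and of RBL1 for both changes together (0.0928), and changed no other member call.

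With that block 11 G2/M genes were called after FDX2 loss at 3% O2 (17 reported), and 12 G2/M (20) and 5 G1/S genes (11) for the difference of the responses. Calls over all genes moved too. Those for FDX2 loss at 20% O2 ranged from 3645 to 7556 (5961 reported), for FDX2 loss at 3% O2 from 218 to 2569 (1235), for oxygen with Doxy from 128 to 930 (341), for oxygen without Doxy from 1975 to 5589 (4360), for both together from 1302 to 4537 (3091) and for the difference from 382 to 2784 (1231). Counts limit E2F2 and FDX2 the most.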
